A study of Mus musculus with 2 samples.

Results

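The comparison is a 10-fold step in the dose of a peptide named M9C, from 0.2 to 2 pmol, read in mouse CD8+ T cells after 30 h. A cell was given to a culture when its leading hashtag, a barcoded antibody that marks the culture, had at least 20 counts and at least 80% of all hashtag counts of that cell. Cells also had to hold at least 500 genes and at most 10% mitochondrial transcripts. These rules gave 1703 cells at 2 pmol and 1589 cells at 0.2 pmol, together 3292 of the 10600 cells that passed them in the whole series and of its 13439 barcodes. The CD8+ T cells came from the spleen of wild-type (WT) mice, and no source used here names their T cell receptor. In each of the 5 stimulated cultures the cells met peptide-loaded H-2Db, a mouse class I MHC molecule, bound as biotinylated monomers to streptavidin on a plate, and 1 further culture was rested for the same 30 h. After hashtag staining, live cells were sorted by propidium iodide exclusion, pooled and loaded into 1 lane of a 10x Genomics droplet device. Every dose was 1 culture, so no test between doses was possible: intervals below are 95% counting intervals and leave out the spread between cultures. Those of levels and ratios also treat every counted transcript as independent and leave out the spread between cells.

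CD8+ T cells read antigen through the T cell receptor, which binds a peptide held in a class I MHC molecule. The receptor starts a kinase cascade that ends in Erk and a calcium signal that moves NFAT into the nucleus, and the series is about how these signals behave over many hours. Cells that receive the signal divide, secrete chemokines and cytokines such as interferon gamma and interleukin-2, and build the granzymes and perforin with which they kill target cells. Antigen dose can alter how many cells respond and how strongly each of them does.

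The barcodes that assign a cell to its culture are short designed DNA sequences, shown here because the whole comparison rests on telling them apart.
0.2 pmol M9C hashtag: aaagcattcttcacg
2 pmol M9C hashtag: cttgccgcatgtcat

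The promoters of Ccl1 and Xcl1 and of Lgals3 and Ctla2a are printed next because the results turn on them. They had the 2 highest and 2 lowest ratios by the bound nearest equality among genes at 20 CPM or more, leaving out antibody genes and markers of other cell types such as globins. The windows run from 250 bases before to 50 bases after the RefSeq start site on GRCm38.p6, and for Ctla2a, which has several start sites in that table, the first listed window was used. The Ccl1 and Lgals3 windows lie wholly inside the gene spans of GENCODE vM21, so the 2 annotations place the starts of these genes differently. Capitals mark matches on either strand to the NFAT core GGAAA, the AP-1 motif TGANTCA and the STAT factor motif TTCNNNGAA.
Ccl1 promoter, chr11:82179763-82180062, minus strand: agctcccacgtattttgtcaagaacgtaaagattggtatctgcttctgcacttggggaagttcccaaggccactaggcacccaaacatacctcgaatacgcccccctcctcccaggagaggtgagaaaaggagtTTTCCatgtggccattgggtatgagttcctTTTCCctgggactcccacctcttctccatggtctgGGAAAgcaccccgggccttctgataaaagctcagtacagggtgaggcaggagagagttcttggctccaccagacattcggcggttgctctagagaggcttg
Xcl1 promoter, chr1:164935473-164935772, minus strand: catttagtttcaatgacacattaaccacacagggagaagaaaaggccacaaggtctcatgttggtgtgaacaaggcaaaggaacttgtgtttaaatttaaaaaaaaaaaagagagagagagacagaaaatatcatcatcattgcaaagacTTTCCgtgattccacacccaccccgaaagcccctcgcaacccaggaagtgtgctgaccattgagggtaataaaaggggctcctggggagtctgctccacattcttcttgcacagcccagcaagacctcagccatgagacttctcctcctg
Lgals3 promoter, chr14:47373610-47373909, plus strand: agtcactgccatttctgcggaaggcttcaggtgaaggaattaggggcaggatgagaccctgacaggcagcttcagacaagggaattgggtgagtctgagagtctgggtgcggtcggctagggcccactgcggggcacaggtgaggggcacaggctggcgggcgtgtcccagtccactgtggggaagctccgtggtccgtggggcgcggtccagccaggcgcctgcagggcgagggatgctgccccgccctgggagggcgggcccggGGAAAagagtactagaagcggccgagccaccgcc
Ctla2a promoter, chr13:60936576-60936875, minus strand: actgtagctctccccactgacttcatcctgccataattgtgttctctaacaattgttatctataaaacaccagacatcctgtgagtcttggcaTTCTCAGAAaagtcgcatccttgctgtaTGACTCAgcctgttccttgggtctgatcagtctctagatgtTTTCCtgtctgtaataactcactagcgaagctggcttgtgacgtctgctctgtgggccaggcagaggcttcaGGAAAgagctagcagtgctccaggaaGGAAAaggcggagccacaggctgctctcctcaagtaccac

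The Ccl1 window held 3 NFAT cores, Xcl1 held 1, Lgals3 held 1 and Ctla2a held 3, and in these windows no match overlapped another. Such a core is common: 61.3% of all 27025 promoters searched had at least 1, and 60.2% of the 5607 promoters of genes at 10 CPM or more in either culture. It stood in 9 of 17 promoters of genes at least 1.5-fold higher at 2 pmol and 8 of 14 of genes at least 1.5-fold lower. The Ctla2a window also held the AP-1 match TGACTCA, from base -129 to -123, and the STAT factor match TTCTCAGAA, from base -157 to -149, counted from the start site. The AP-1 motif stood in 7.93% of all promoters and the STAT factor motif in 8.47%. Among the 5607 promoters of genes at 10 CPM or more the shares were 3.94% and 6.97%. Among the promoters of the lower genes, 3 and 4 of 14 held them, against 1 and 0 of 17 among the higher genes. Other motifs were searched too, such as that of NF-kB factors, in 0 of 14 lower and 2 of 17 higher promoters. The E-box of Myc stood in 2 of 14 and 0 of 17. These counts are small and their differences were not tested. A match describes the letters of these windows and shows no binding.

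Depth was alike at both doses. The 2 pmol culture gave 11982336 transcripts counted by unique molecular identifiers (UMIs), with a median of 6996 UMIs and 2432 genes per cell, and the 0.2 pmol culture gave 11376897, with medians of 7114 and 2460. Mitochondrial transcripts made up a median of 1.59% and 1.61% of a cell's UMIs. A gene's level is given in CPM, its UMIs scaled to a common total for each culture, and a count of 0 allows up to 0.25 CPM at 2 pmol and 0.264 CPM at 0.2 pmol. The 6 CD8 T cell markers (Cd8a, Cd8b1, Cd3d, Cd3e, Cd3g and Trac) summed to 2018 and 1999 CPM at 2 and 0.2 pmol, while Cd4 was at 0 at both doses. Rested cells were shallow, with a median of 1056 UMIs in 755 cells, and serve here only as a level in cells of the same lane that met no peptide. Of 1583 rested barcodes that passed the hashtag rule, 828 fell under the gene minimum, against 53 of 1760 at 2 pmol and 35 of 1633 at 0.2 pmol. The rested values thus come from the barcodes of that culture with more genes. Cells just inside the hashtag share limit, up to 5 percentage points above it, numbered 41 at each dose, with median depths of 6630 UMIs at 2 pmol and 7032 at 0.2 pmol. Cells just outside, up to 5 points below, numbered 16 and 32, with medians of 9155 and 6443. Up to 50 genes above the gene minimum were 2 and 1 cells and up to 50 below it 4 and 2. No barcode occurred more than once in the matrix.

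Between the doses most of the transcriptome was level, and a small set of genes was not. Of 6955 genes at 10 CPM or more in either culture, 6378 (91.7%) had a log2 ratio of 2 over 0.2 pmol within 0.25 of 0, and the median was -0.01, with 3161 ratios above 0 and 3794 below. At least 1.5-fold higher at 2 pmol, with an interval that excluded equality, were 21 genes (0.302%), and at least 1.5-fold lower were 22 (0.316%), together 0.618% of those measured. At 2-fold the counts were 8 (0.115%) and 5 (0.0719%). Among the higher genes were the chemokine genes Ccl1, Xcl1 and Ccl5, the cytokine gene Il2, and Rgs2, Rgs16 and Nr4a2. Among the lower ones were Lgals3, Ctla2a, Ly6c2, Gzmb, Socs2, Eomes, Ikzf2 and Il7r.

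**Figure D1:**
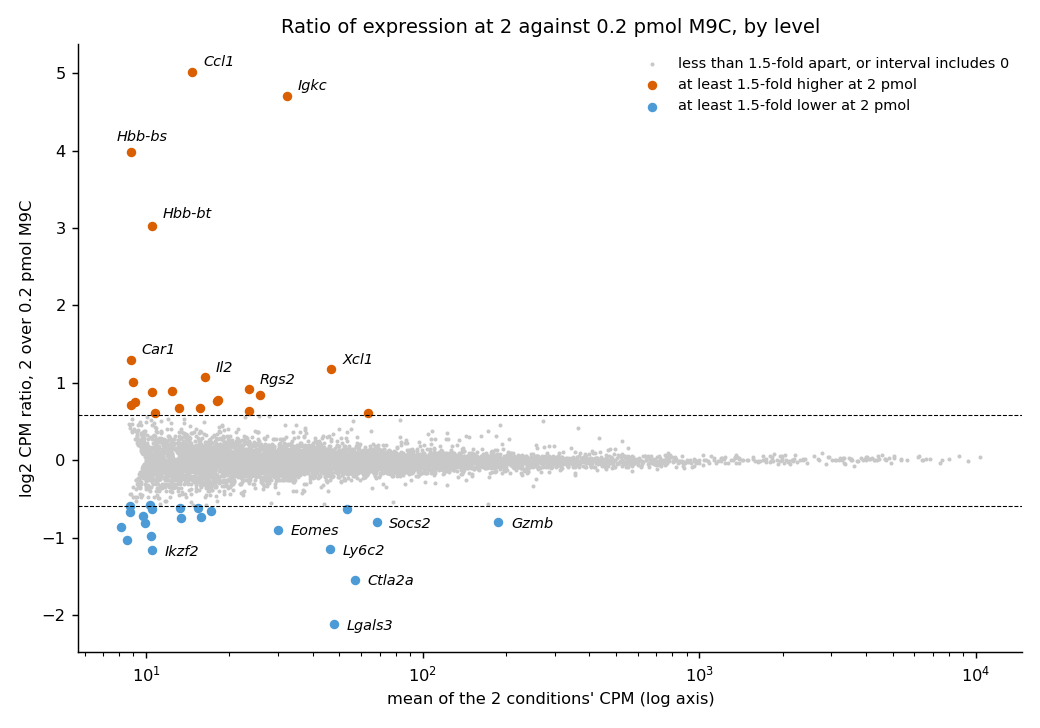
Each point is a gene at 10 CPM or more in either culture, with the mean of its CPM at 2 and 0.2 pmol M9C on a log axis and its log2 CPM ratio on the vertical axis. Most points lie near 0 at every level, Ccl1 stands at 5.02 and Lgals3 at -2.12, and the dashed lines mark 1.5-fold.

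The plot of ratio against level shows that the unequal genes were mostly of low to middle level. The 3 other points far above 0 (Igkc, Hbb-bs and Hbb-bt) are antibody and globin genes that rested on very few cells and are described at the end.

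Chemokines and cytokines had the highest median of the 24 lists at this level filter. Of 31 genes listed, 13 were at 10 CPM or more. Past 1.5-fold, 4 of these were higher at 2 pmol and 0 lower, and 10 had a ratio above 0. Their median log2 ratio was 0.42, beside -0.01 over all genes. With only genes at 50 CPM or more, 8 members were left and the median was 0.24, below the 0.35 of inhibitory receptors.

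Ccl1 encodes a chemokine of activated T cells that acts through the receptor CCR8. It stood at 0.879 CPM at 0.2 pmol (10 UMIs) and 28.5 CPM at 2 pmol (342 UMIs), a 32.5-fold higher level (17.4 to 68.3). At 20 pmol it stood at 42.5 CPM, and in rested cells no UMI was counted, which allows up to 3.26 CPM. The low dose thus lay under the limit that the rested count allows. The gene lies on the minus strand of chromosome 11 at 82176657 to 82305690 (GENCODE vM21, GRCm38). The promoter window printed above was set from the RefSeq start site and lies inside this span.

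Xcl1, a chemokine that attracts cross-presenting dendritic cells, stood at 28.7 CPM at 0.2 pmol and 64.8 CPM at 2 pmol (2.26-fold, 1.99 to 2.58), with 4.35 in rested cells and 100.5 at 20 pmol. Il2, the gene of the T cell growth factor interleukin-2, stood at 10.5 and 22.1 CPM (2.1-fold, 1.68 to 2.62), with 1.09 in rested cells and 33.1 at 20 pmol. Both genes were ordered by dose, with intervals of neighbouring doses apart. Ccl5, a chemokine of memory and effector cells, stood at 18.4 and 33 CPM (1.79-fold, 1.51 to 2.13) and at 39.3 CPM at 20 pmol. Its level in rested cells, 177 CPM, was above all 3 doses on this scale, but 63 of the 163 rested UMIs lay in 5 cells.

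The inflammatory chemokines Ccl3 and Ccl4 were higher at the larger dose too. Ccl3 stood at 225 and 321 CPM (log2 0.51, 0.44 to 0.59) and Ccl4 at 312 and 416 CPM (log2 0.42, 0.35 to 0.48). Both missed 1.5-fold. Lta, the lymphotoxin alpha gene, was the list's lowest member, at 73.4 and 57.3 CPM (log2 -0.36, -0.51 to -0.21). Tnf stood at 27 and 26.4 CPM and Ltb at 205 and 202 CPM, with intervals of the ratio that included equality. Members of this list thus did not share a direction.

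**Figure D2:**
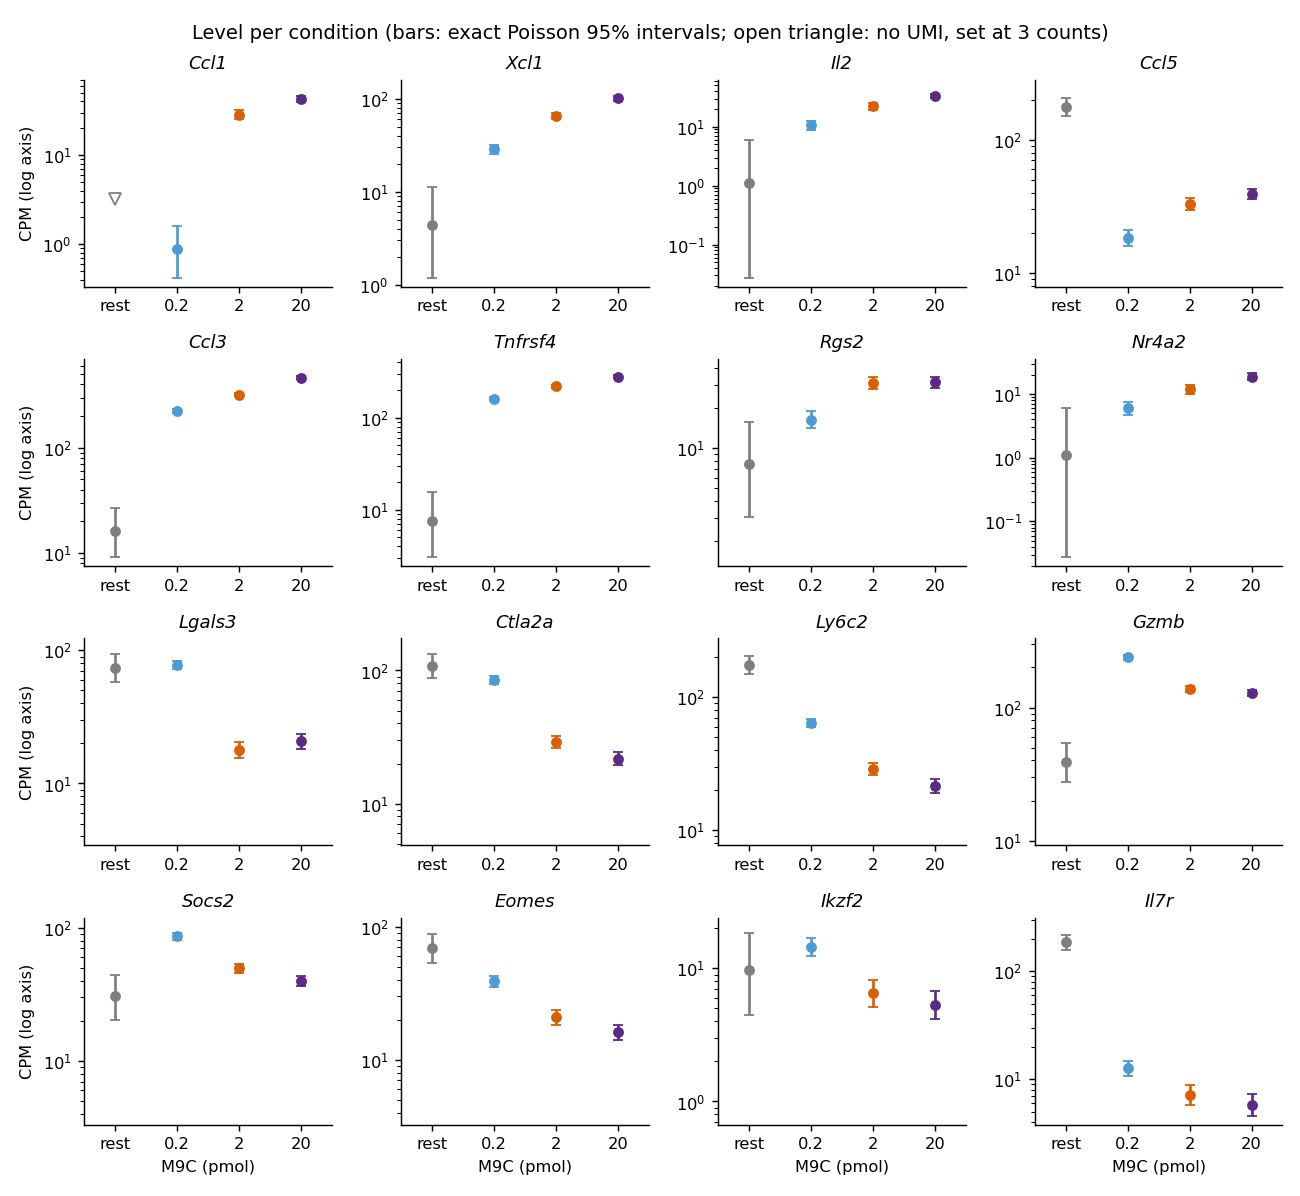
Each panel gives a gene's CPM on a log axis in rested cells and at 0.2, 2 and 20 pmol M9C, 1 culture each, with exact Poisson 95% intervals as bars; the open triangle is the limit of 3 counts where no UMI was counted. Xcl1, Il2, Ccl3 and Tnfrsf4 climb over the 3 doses, while Lgals3, Ctla2a, Ly6c2 and Gzmb drop between 0.2 and 2 pmol.

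The panels of level by dose also show where the rested culture lay. In CPM it was below every dose for genes such as Xcl1, Il2, Ccl3 and Tnfrsf4, and above every dose for Ccl5, Ctla2a, Ly6c2, Eomes and Il7r. CPM gives a gene's part of a culture's UMIs. Rested cells held a median of 1056 UMIs, against 7114 at 0.2 pmol and 6996 at 2 pmol. An order of rested cells and doses in CPM thus need not hold for UMIs per cell. For Lgals3 the rested level was 74 CPM and that at 0.2 pmol 77.6 CPM, but 37 of the 68 rested UMIs lay in 5 cells. Gzmb and Socs2 were higher at 0.2 pmol than in any of the other 3 cultures shown.

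The rise of Ccl1 came from few cells. At 2 pmol its 342 UMIs lay in 32 of 1703 cells (1.88%), 16 of which had 3 or more, and the 5 leading cells held 54.4% of them. At 0.2 pmol the 10 UMIs lay in 9 of 1589 cells, with at most 2 in a cell. Without the 5 leading cells of each dose the log2 ratio was 5.21 (3.83 to 7.1), so the difference did not rest on those. At 20 pmol the 549 UMIs lay in 37 of 1869 cells. A Ccl1-positive cell held a mean of 10.7 UMIs at 2 pmol, 14.8 at 20 pmol and 1.11 at 0.2 pmol.

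Ifng, the interferon gamma gene, had a higher CPM at 2 pmol that depended on few cells. It stood at 68.1 and 97.7 CPM (log2 0.52, 0.39 to 0.65), but 1 cell at 2 pmol held 255 of the 1171 UMIs, and the 5 leading cells held 43.7% of them. Without the 5 leading cells of each dose the levels were 49.3 and 55 CPM (log2 0.16, -0.01 to 0.32), an interval that included equality. Cells with an Ifng UMI were 206 of 1589 (13%) at 0.2 pmol and 190 of 1703 (11.2%) at 2 pmol. The share of cells went the other way from the CPM, so no order of the doses was read for this gene.

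**Figure D3:**
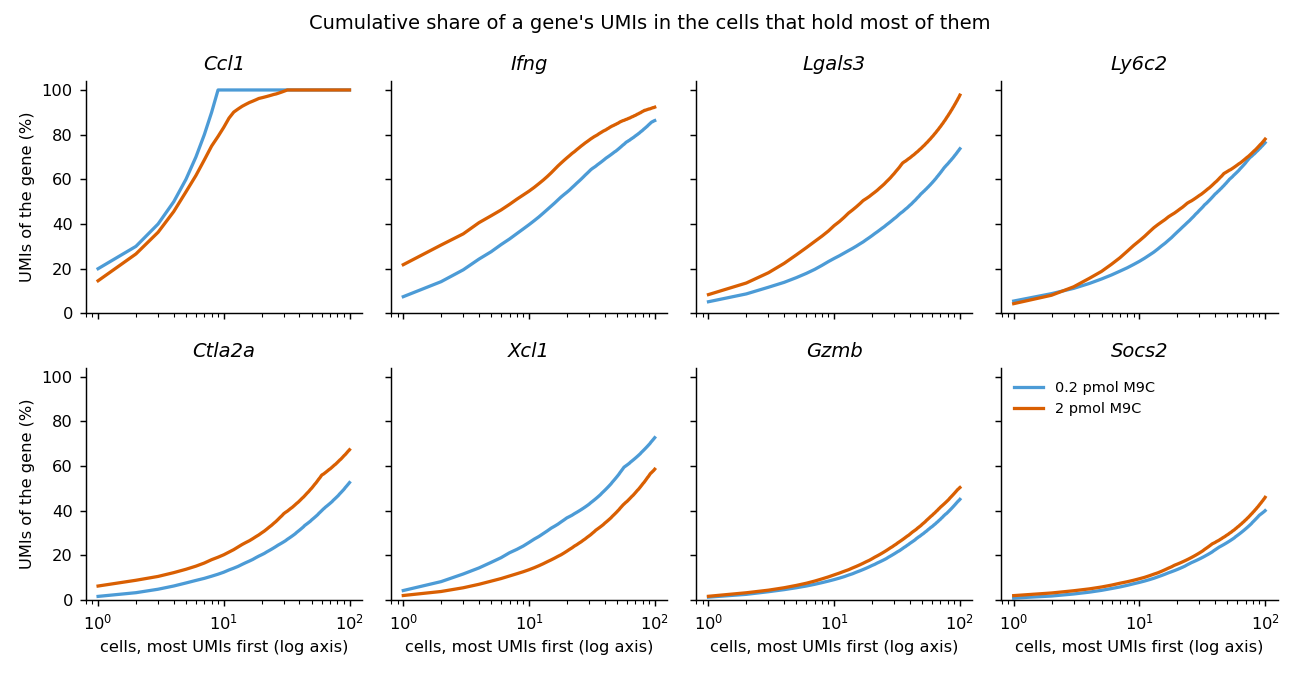
For 8 genes, the cells of each dose are ranked by their UMIs of the gene (log axis) and the line gives the cumulative percentage of the gene's UMIs they hold, up to 100 cells. Ccl1 reaches 100% within 32 cells at 2 pmol, the leading cell alone holds 21.8% of the Ifng UMIs there, and Gzmb and Socs2 are spread over many cells.

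The curves of cumulative UMIs separate the genes into those carried by few cells and those spread widely. Gzmb had UMIs in 597 of 1703 cells at 2 pmol and 729 of 1589 at 0.2 pmol, and its 5 leading cells held 6.58% and 5.54% of them. Lgals3 lay between, with 105 and 280 positive cells and 26.2% and 16% in the 5 leading cells. Without those cells Lgals3 had a log2 ratio of -2.31 and Gzmb of -0.81.

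Genes tied to receptor signalling followed next. Of the NFAT and calcium linked genes, 17 of 21 were measured, 3 were higher past 1.5-fold, 0 were lower, and the median log2 ratio was 0.07. Rgs2, a regulator that shortens G protein signals, stood at 16.3 and 30.9 CPM (1.89-fold, 1.58 to 2.26). Its relative Rgs16 stood at 13.4 and 22.8 CPM (1.69-fold, 1.38 to 2.08). Nr4a2, a nuclear receptor gene induced by receptor signals, stood at 5.98 and 12 CPM (2.01-fold, 1.5 to 2.72). The other 14 members, among them Irf4 (115 and 113 CPM), Nfatc1 (48.2 and 47.9 CPM), Nr4a3 (20.4 and 19.9 CPM) and Tox (19.4 and 19.3 CPM), were within 0.28 of 0 on the log2 scale.

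Erk-linked immediate-early and feedback genes had 0 of 16 measured members at least 1.5-fold apart and a median of 0.1, with 12 ratios above 0. The farthest was Fos, an AP-1 subunit, at 7.82 and 10.3 CPM (log2 0.4, 0 to 0.81). Egr1, an immediate-early transcription factor, stood at 45.6 and 52.4 CPM (log2 0.2, 0.03 to 0.37), and Dusp6, a phosphatase that turns Erk off, at 9.58 and 12.3 CPM (log2 0.36, -0.01 to 0.73). NF-kB genes, those of the inflammatory transcription factor family and its inhibitors, also had 0 of 15 past 1.5-fold. All 15 of their ratios were at or above 0, with a median of 0.13. Traf1, a signalling adaptor, stood at 74.4 and 91.6 CPM (log2 0.3, 0.17 to 0.43) and Rel at 62.8 and 71.9 CPM (log2 0.19, 0.05 to 0.34). Ratios in these lists were thus small, and mostly on the side of the higher dose.

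Surface molecules differed by list. The list named inhibitory receptors also holds genes of ligands. Its median was 0.35, with 6 of 7 measured members above 0 and 1 at least 1.5-fold higher. That member was Cd274, the gene of PD-L1, a ligand of PD-1, at 12 and 19.2 CPM (1.59-fold, 1.28 to 1.98). Pdcd1, the PD-1 gene, stood at 47.1 and 62.7 CPM (log2 0.41, 0.25 to 0.57), and Cd200 at 107 and 137 CPM (log2 0.35, 0.24 to 0.46). Lag3, which binds MHC class II, was nearly level at 83.8 and 91.4 CPM (log2 0.13, 0 to 0.25). Pdcd1lg2, the PD-L2 gene, stood at 18.4 and 27.1 CPM (log2 0.56, 0.31 to 0.82).

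The list of costimulatory and activation receptors had a median of 0.01 over 22 measured members, of which 0 passed 1.5-fold. Tnfrsf4, the OX40 gene, was the highest of them, at 161 and 219.7 CPM (log2 0.45, 0.36 to 0.53), and Cd5, a brake on receptor signalling, stood at 149.7 and 195 CPM (log2 0.38, 0.29 to 0.47). Icos, a costimulatory receptor of the CD28 family, was the lowest, at 112 and 92.4 CPM (log2 -0.28, -0.4 to -0.17). The early activation marker Cd69 was nearly level, at 174 and 184 CPM (log2 0.08, -0.01 to 0.17). Cd44, another activation marker, stood at 29.5 CPM at both doses. Cd9, a tetraspanin named for its ratio, was 1.71-fold higher (1.4 to 2.1), at 13.4 and 22.9 CPM.

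Cytotoxic genes went both ways. Of 14 measured members 1 was at least 1.5-fold higher and 1 lower, and the median was 0.09. Gzmb, the granzyme B gene, stood at 238 CPM at 0.2 pmol and 137 CPM at 2 pmol (1.74-fold lower, 1.63 to 1.85). Prf1, which encodes the pore protein perforin, stood at 18.5 and 28.7 CPM (1.56-fold higher, 1.31 to 1.86). Serpinb9, an inhibitor of granzyme B, stood at 46.3 and 66.1 CPM (log2 0.51, 0.35 to 0.67). So the granzyme transcript and those of the pore protein and the inhibitor differed in direction between these cultures. Nkg7, a granule membrane protein gene, stood at 243 and 237 CPM, with a ratio interval that included equality.

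Lgals3 and Ctla2a, with the largest drops among named genes, belong to a list that joins Ctla2, Ly6, galectin, S100 and annexin genes, of which 18 of 23 were measured. Past 1.5-fold, 3 members were lower and 0 higher, and the median was -0.07. Lgals3, which encodes the sugar-binding protein galectin-3, stood at 77.6 CPM at 0.2 pmol and 17.9 CPM at 2 pmol (4.35-fold lower, 3.74 to 5.07). For Ctla2a, whose product inhibits cysteine proteases, the levels were 84.8 and 29.1 CPM (2.91-fold lower, 2.57 to 3.3). Ly6c2, a surface protein gene of memory and effector cells, had 63.7 and 28.8 CPM (2.21-fold lower, 1.94 to 2.52). In all 3 the 2 pmol culture was the lower, with Poisson intervals of the levels that did not overlap.

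Of the list's 18 measured members 13 had a ratio below 0, and the 15 others stayed short of 1.5-fold. Relatives chosen as examples after their values were seen lay near or above 0. Lgals1 stood at 246 and 239 CPM (log2 -0.04, -0.12 to 0.03), S100a10 at 174 and 171 CPM, and Ly6a, the Sca-1 gene, at 481 and 572 CPM (log2 0.25, 0.2 to 0.3). Vim, the vimentin gene, was lower at 206 and 138 CPM, and its log2 ratio of -0.57 (-0.67 to -0.48) lay just inside 1.5-fold. Ctla2a and Ly6c2 have near-identical neighbours, and the Gzm genes are a family of alike sequences. The handling of reads that match more than 1 copy may affect the levels of these genes and was not tested.

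Lgals3 and Lyz2 are also abundant in macrophages, and Lyz2 stood at 9.49 CPM at 0.2 pmol. Of its 108 UMIs there 105 lay in 1 cell. The 10 macrophage or monocyte markers summed to 11.7 and 2.84 CPM at 0.2 and 2 pmol, reached 3 UMIs in 1 and 0 cells, and had Adgre1, Cd14, C1qa, C1qb, C1qc and Ms4a7 at 0 at both doses. At 0.2 pmol Lgals3 UMIs lay in 280 cells. With cells holding 3 or more UMIs of other cell types' markers left out, where Eomes, Batf3 and Ighm were not counted as markers (1638 and 1532 cells kept), 17 of the 21 higher and 21 of the 22 lower genes were still at least 1.5-fold apart.

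Effector and memory transcription factors had a median of -0.01 over 24 measured members, and past 1.5-fold 2 were lower and 0 higher. Eomes, a T-box factor of memory and killer cells, stood at 39 and 20.9 CPM (1.86-fold lower, 1.59 to 2.18). Ikzf2, the Helios gene, stood at 14.5 and 6.51 CPM (2.23-fold lower, 1.69 to 2.96). Tbx21, the T-bet gene and the other T-box factor of effector cells, stood at 30.8 and 32 CPM (log2 0.06, -0.15 to 0.27). Batf3, an AP-1 family factor, was lower without reaching 1.5-fold, at 92.7 and 63.8 CPM (log2 -0.54, -0.67 to -0.4), and so was Id2, at 17.2 and 11.9 CPM (log2 -0.54, -0.86 to -0.22). Irf8 had the highest ratio, at 131 and 162 CPM (log2 0.3, 0.21 to 0.4).

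Markers of natural killer cells include Eomes itself: their 7 genes summed to 42.5 CPM at 0.2 pmol and 22.4 CPM at 2 pmol and reached 3 UMIs in 28 and 11 cells. Eomes made up most of both sums, and Klra8 was at 0 at both doses. Ncr1, Klrb1c and Klra4 were at 0 at 2 pmol only. The part of natural killer cells in the Eomes difference was not tested. Dendritic cell markers summed to 93.3 and 64.3 CPM, nearly all of it Batf3, and Flt3, Xcr1, Clec9a and Siglech were at 0 at both doses.

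IL-2 and STAT5 responsive genes are switched on by cytokine receptors of the IL-2 family. Of 12 measured, 2 were at least 1.5-fold lower and 0 higher, and the median was -0.09. Ratios below 0 numbered 11, beside 3794 of 6955 over all genes. Socs2, a feedback inhibitor of cytokine signals, stood at 86.5 and 49.7 CPM (1.74-fold lower, 1.57 to 1.93), and Gadd45g, a stress-induced growth arrest gene, at 18.7 and 12.2 CPM (1.54-fold lower, 1.24 to 1.91). Cish, a further feedback inhibitor, stood at 66.5 and 56.9 CPM (log2 -0.22, -0.37 to -0.07). Il2ra, the high-affinity receptor subunit for IL-2, stood at 204 and 182 CPM (log2 -0.16, -0.25 to -0.08). These ratios stood beside an Il2 transcript that was higher at 2 pmol.

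Among 16 measured cytokine receptors 1 was at least 1.5-fold lower and 0 higher, with a median of -0.1. It was Il7r, the IL-7 receptor alpha chain of resting and memory cells, at 12.6 and 7.18 CPM (1.75-fold lower, 1.33 to 2.32), against 185 CPM in rested cells. Taken as the mean of the cells' own CPM, which weights every cell alike, its log2 ratio was -0.38. Naive and quiescence genes had a median of 0.02 over 22 members, with Il7r lower and Dapl1 higher. Dapl1, a gene known from naive T cells, went from 50.2 to 76.4 CPM (1.52-fold, 1.37 to 1.69), which is close to 1.5-fold: as the mean of the cells' CPM its log2 ratio was 0.57, and in UMIs per cell 0.58. Tcf7 and Lef1, factors that keep cells naive-like, stood at 110.2 and 106 CPM and at 53.4 and 52.2 CPM, ratios with intervals that included equality.

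Trafficking receptors had a median of -0.13 with 9 of 11 ratios below 0 and 0 past 1.5-fold. Ccr7, a chemokine receptor that guides cells to lymph nodes, stood at 63.4 and 58.9 CPM (log2 -0.11, -0.26 to 0.05).

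Of 17 measured interferon responsive genes 0 were higher past 1.5-fold and 1 was lower. Ratios were small, with a median of 0.21, and 15 lay above 0, beside 3161 of 6955 over all genes. Iigp1, an interferon-induced GTPase of antimicrobial defence, stood at 93.6 and 122 CPM (log2 0.38, 0.26 to 0.49), Gbp4 at 56.6 and 73.8 CPM (log2 0.38, 0.23 to 0.53) and Gbp2, which like Gbp4 is a guanylate-binding protein gene, at 391 and 478 CPM (log2 0.29, 0.23 to 0.35). Below 0 were Ifi27l2a, at 65 and 41.9 CPM (1.55-fold lower, 1.38 to 1.74), and Bst2, which encodes the virus-tethering protein tetherin, at 206 and 189 CPM (log2 -0.13, -0.21 to -0.04). At 20 pmol Iigp1 and Gbp2 stood lower than at 2 pmol, at 105 and 419 CPM.

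**Figure D4:**
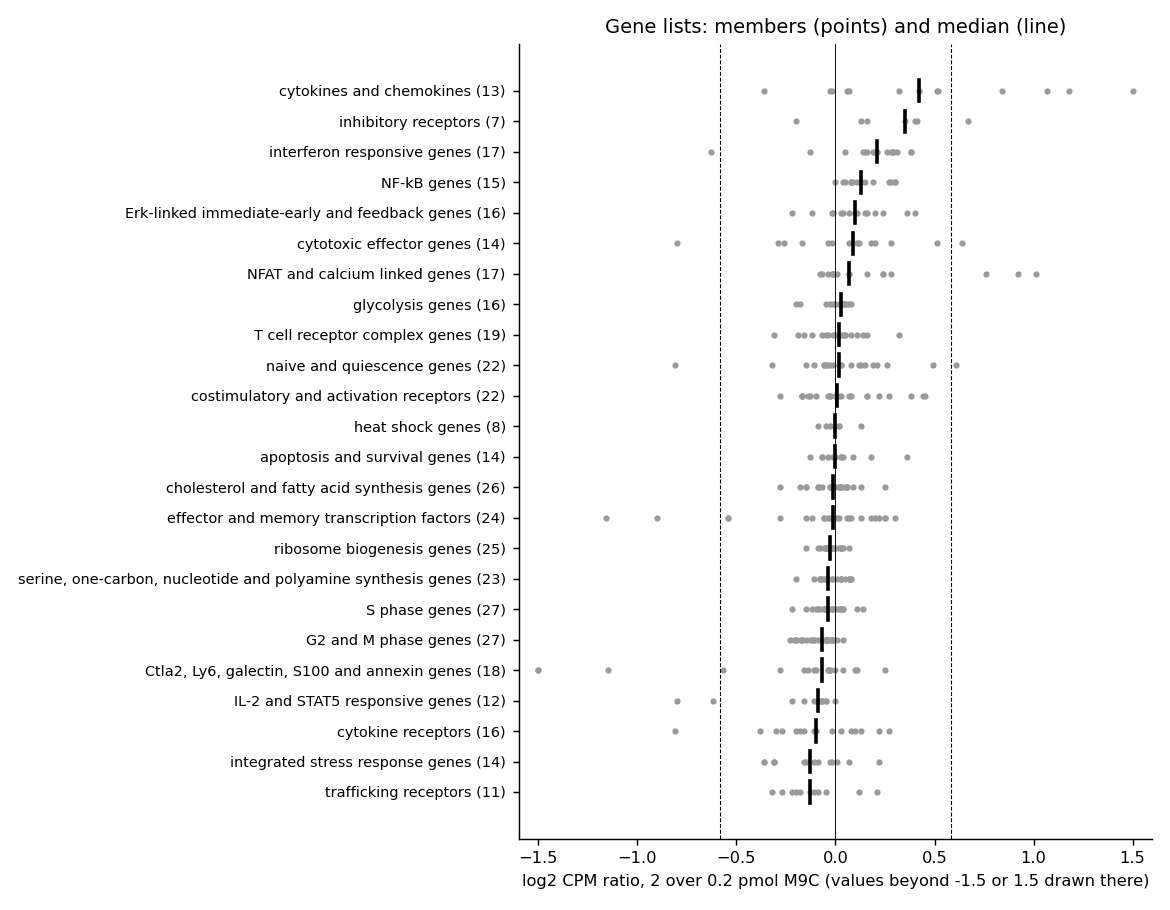
Rows are the 24 gene lists, with the number of measured members in brackets, sorted by median; points are members' log2 CPM ratios of 2 over 0.2 pmol M9C, thick lines the medians, and dashed lines 1.5-fold. Cytokines and chemokines (0.42) and inhibitory receptors (0.35) lie highest, and trafficking receptors and integrated stress response genes (-0.13) lowest.

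Programmes of growth and division were nearly level, as the plot of list members shows. S phase genes had a median of -0.04 over 27 members, G2 and M phase genes -0.07 over 27, glycolysis genes 0.03 over 16, cholesterol and fatty acid synthesis genes -0.01 over 26, ribosome biogenesis genes -0.03 over 25 and serine, one-carbon, nucleotide and polyamine synthesis genes -0.04 over 23. In these 6 lists 0 members were at least 1.5-fold apart. The farthest members were Chaf1b (log2 -0.22), Bub1b (-0.23), Eno3 (-0.2), Lss (-0.28), Utp20 (-0.15) and Pfas (-0.2). Among the G2 and M phase genes 25 of 27 ratios lay below 0, with Aurkb, a mitotic kinase, at 42.3 and 36.8 CPM (log2 -0.2, -0.39 to -0.01) and Cdc20, an activator of the anaphase ligase, at 86.6 and 75.2 CPM (log2 -0.2, -0.34 to -0.07).

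Stress and survival genes were also less than 1.5-fold apart. Integrated stress response genes had a median of -0.13 over 14 members, with Trib3, a pseudokinase, at 19 and 14.8 CPM (log2 -0.36, -0.66 to -0.07) and Asns, the asparagine synthetase gene, at 41.8 and 33.6 CPM (log2 -0.31, -0.51 to -0.12). Apoptosis and survival genes had a median of 0 over 14 members. Bcl2l11, which encodes the death promoter BIM, stood highest, at 22.2 and 28.4 CPM (log2 0.36, 0.12 to 0.6). Heat shock genes had a median of 0 over 8 members, the farthest being Dnajb1 (log2 0.13). Of 19 measured T cell receptor complex genes 0 passed 1.5-fold, with a median of 0.02. Ptpn6, the phosphatase SHP-1, was their farthest member, at 145 and 180.2 CPM (log2 0.32, 0.23 to 0.41), and Cd8b1, a chain of the CD8 coreceptor, stood at 378 and 332 CPM (log2 -0.19, -0.25 to -0.13).

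To ask whether more cells or more transcripts per cell went with a ratio, every cell was thinned to 3000 UMIs. This left out 106 of 1703 cells at 2 pmol and 89 of 1589 at 0.2 pmol as too shallow. Xcl1 was then seen in 6.33% of cells at 0.2 pmol (5.15 to 7.69) and 12.6% at 2 pmol (11 to 14.3), against 11.9% and 21.6% of cells unthinned. Il2 went from 2.8% (2.03 to 3.77) to 5.45% (4.39 to 6.68), unthinned 5.73% and 11%. As log2 ratios these shares were 0.99 for Xcl1 and 0.96 for Il2, beside 1.18 and 1.07 for the CPM. At 1000 and 5000 UMIs per cell the Xcl1 share had 1.34 and 0.88, and the Il2 share 0.61 at both depths.

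Of the lower genes, Lgals3 was seen in 12.4% of thinned cells at 0.2 pmol (10.8 to 14.2) and 3.51% at 2 pmol (2.66 to 4.53), unthinned 17.6% and 6.17%. Ctla2a went from 15.9% (14.1 to 17.8) to 6.57% (5.41 to 7.9), unthinned 28.7% and 12.6%, and Gzmb from 32.5% (30.1 to 34.9) to 22.7% (20.7 to 24.9), unthinned 45.9% and 35.1%. Positive cells also held fewer UMIs at 2 pmol: unthinned, 2.04 against 3.15 Lgals3 UMIs, 1.63 against 2.12 of Ctla2a and 2.75 against 3.72 of Gzmb. For these 3 genes both the share of positive cells and their UMIs were lower at 2 pmol.

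**Figure D5:**
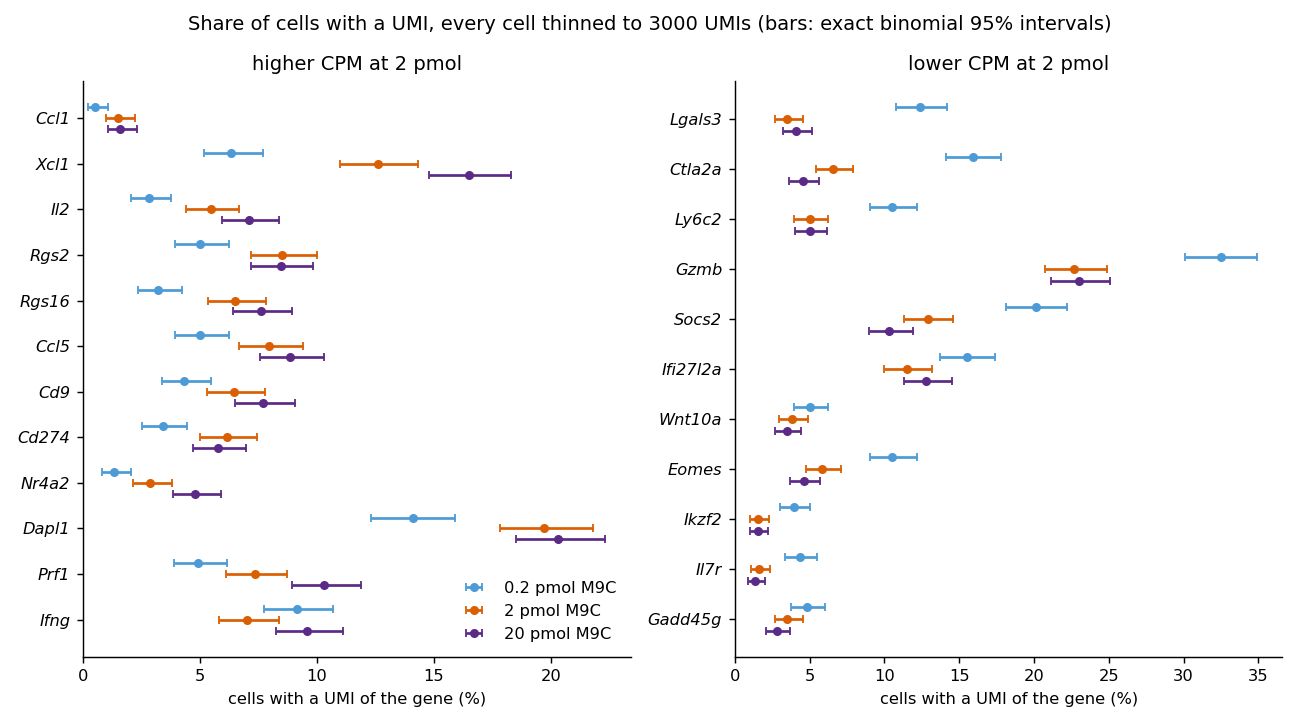
Points give the percentage of cells with a UMI of a gene after thinning to 3000 UMIs per cell, with exact binomial 95% intervals, at 0.2, 2 and 20 pmol M9C. At left Xcl1 goes from 6.33% at 0.2 pmol to 12.6% at 2 pmol, and at right Lgals3 goes from 12.4% to 3.51%. The intervals at 0.2 and 2 pmol overlap for Ccl1, Cd9, Prf1 and Ifng at left and for Wnt10a and Gadd45g at right.

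Free RNA in a droplet lane puts UMIs into cells that do not make a transcript, so shares were set beside those of rested cells at 1000 UMIs per cell, a depth that 464 of the 755 rested cells reached. Thinning took few UMIs from rested cells (median 1056) and most from cells at 0.2 and 2 pmol (medians 7114 and 6996). The part of free RNA left after thinning may thus differ between them, which was not tested. Xcl1 was seen in 0.216% of rested cells (0.00546 to 1.19), 1.95% at 0.2 pmol (1.33 to 2.76) and 4.95% at 2 pmol (3.96 to 6.09). Ccl1 was seen in 0 of 464 rested cells, which allows a share of up to 0.647%, in 0.126% at 0.2 pmol (0.0153 to 0.455) and in 1% at 2 pmol (0.584 to 1.6). The Ccl1 share at 0.2 pmol lay within what the rested count of 0 allows, so it could not be told from that of rested cells at this depth. The interval at 2 pmol also reached below that limit. Nr4a2 at 0.2 pmol, with 0.504% (0.218 to 0.991) against 0 of 464, had an interval across that limit. Rgs16, at 0 of 464 in rested cells, 1.07% at 0.2 pmol (0.626 to 1.71) and 2.06% at 2 pmol (1.44 to 2.86), was above it at 2 pmol. For Lgals3, Ctla2a, Ly6c2, Eomes and Il7r the rested cells were themselves positive, at 4.09%, 7.54%, 10.3%, 6.47% and 16.2%, and gave no measure of background.

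Within a culture the unequal genes overlapped in some cells. At 2 pmol, of 24 cells with a Ccl1 UMI after thinning to 3000, 62.5% had an Xcl1 UMI (40.6 to 81.2), against 11.8% of the other cells (10.3 to 13.5). For Ifng the shares were 62.5% (40.6 to 81.2) and 6.17% (5.03 to 7.47), and for Eomes 29.2% (12.6 to 51.1) and 5.47% (4.4 to 6.71). Tnfrsf4 was seen in 37.5% (18.8 to 59.4) and 37.6% (35.2 to 40.02), so Ccl1-positive cells differed from the rest in some of these genes and not measurably in others. Cells with an Xcl1 UMI held a Ccl4 UMI in 66.7% of cases (59.7 to 73.1), against 43.1% (40.5 to 45.8).

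At 0.2 pmol, of 186 cells with an Lgals3 UMI, 57.5% had a Gzmb UMI (50.1 to 64.7), against 28.9% of the other cells (26.5 to 31.5), and 20.4% an Ifng UMI (14.9 to 26.9), against 7.53% (6.17 to 9.1). At 2 pmol the Gzmb shares were 35.7% of 56 Lgals3-positive cells (23.4 to 49.6) and 22.3% of the others (20.2 to 24.4). Ctla2a and Ly6c2 were also found together at 0.2 pmol, with Ly6c2 in 22.7% of 238 Ctla2a-positive cells (17.5 to 28.5) and 8.24% of the others (6.78 to 9.9). Socs2 was seen in 22.6% of Lgals3-positive cells (16.8 to 29.3) and 19.7% of the others (17.6 to 22), intervals that overlap. These are shares of cells of 1 culture, which are not replicates of a dose.

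The next 10-fold step, from 2 to 20 pmol, shares the 2 pmol culture with this comparison, so its values are set beside the others and no agreement is computed. In that step 16 of 6946 genes (0.23%) were higher by 1.5-fold or more and 6 (0.0864%) were lower. Xcl1 had a log2 ratio of 1.18 in the first step (0.99 to 1.37) and 0.63 in the next (0.5 to 0.76). Lgals3 had -2.12 (-2.34 to -1.9) and then 0.22 (-0.05 to 0.48), and Gzmb -0.8 (-0.89 to -0.71) and then -0.09 (-0.19 to 0.01). Rgs2 had 0.92 (0.66 to 1.18) and then 0.02 (-0.19 to 0.23). Prf1 had 0.64 (0.39 to 0.89) and then 0.73 (0.53 to 0.92), Ccl3 0.51 (0.44 to 0.59) and then 0.54 (0.48 to 0.6), and Batf3 -0.54 (-0.67 to -0.4) and then -0.74 (-0.91 to -0.58). Some genes thus had most of their difference in the lower step, such as Lgals3, Gzmb and Rgs2, and others had a like ratio in each, such as Prf1 and Ccl3; whether the steps differ could not be tested with 1 culture each.

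Some genes past 1.5-fold that the naming rule left out were of low level. Those given here were chosen after their values were seen and are given as values. Others were left out by kind of gene, such as Igkc, which is described further below. Cavin3, a gene of caveolar membrane coats, stood at 8.61 CPM at 0.2 pmol, 16.1 at 2 pmol and 34.3 at 20 pmol. Rasgef1b, an exchange factor for small GTPases, stood at 7.38, 13.6 and 16.6 CPM. Tnip3, an NF-kB inhibitor gene, stood at 11.4, 5.59 and 7.59 CPM, and Mtss1, an actin regulator gene, at 13.8, 7.01 and 7.82 CPM. Wnt10a, a secreted signalling protein gene that the rule does name, stood at 21, 13.3 and 13 CPM (1.58-fold lower at 2 than at 0.2 pmol, 1.29 to 1.95). Car1, a carbonic anhydrase gene, had a log2 ratio of 1.3 (0.85 to 1.76), but its UMIs lay in 10 cells at 0.2 pmol and 18 at 2 pmol.

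Further genes of the naming rule belonged to no list and stayed short of 1.5-fold. Lgals7, a galectin gene, stood at 22.4 CPM at 0.2 pmol and 33.2 CPM at 2 pmol (log2 0.57, 0.34 to 0.8), and Ncoa7, a nuclear receptor coactivator gene, at 20.5 and 30.5 CPM (log2 0.57, 0.33 to 0.82). Rgcc, a regulator of the cell cycle, stood at 29.4 and 40.5 CPM (log2 0.46, 0.26 to 0.67) and at 60.9 CPM at 20 pmol. On the lower side Gprin3 stood at 52.5 and 35.6 CPM (log2 -0.56, -0.74 to -0.38). Eif4ebp1, which encodes the translation repressor 4E-BP1 of the mTOR pathway, stood at 278 and 222 CPM (log2 -0.33, -0.4 to -0.25), and at 178 CPM at 20 pmol. Gadd45b, a stress-induced relative of Gadd45g, stood at 82.4 and 65.3 CPM (log2 -0.34, -0.47 to -0.2), with a ratio below 0 as for Gadd45g. Fam71b stood at 42.1 and 31.4 CPM (log2 -0.42, -0.62 to -0.23).

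Some differences past 1.5-fold rested on very few cells. Igkc, an antibody light chain gene, stood at 2.37 and 62.3 CPM, and 720 of its 746 UMIs at 2 pmol lay in 1 cell of 1880 UMIs. Hbb-bs and Hbb-bt, globin genes of red cells, stood at 1.05 and 16.6 CPM and at 2.29 and 18.7 CPM, with 3 or more UMIs in 4 and 3 cells at 2 pmol. The 6 erythroid markers summed to 3.78 and 41.7 CPM at 0.2 and 2 pmol. B cell markers summed to 211 and 215 CPM, mostly Ighm, with Pax5 at 0 at both doses, and gamma-delta T cell markers to 59.2 and 61.3 CPM. Leaving out the 5 cells of each dose with the most UMIs of each gene gave 24 genes at least 1.5-fold higher, 18 of them among the 21, and 24 lower, 21 of them among the 22.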

How the data were processed

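The deposited matrix holds gene UMI counts and hashtag counts of 13439 barcodes. Per the submitters' processing notes, the authors made these counts with bcl2fastq and Cell Ranger 6.0.1 against GRCm38 (mm10). The calling of cells against empty droplets and the gene annotation used were not stated in the labels or headers. Each barcode got its condition from the deposited hashtag counts and the authors' table of hashtags, by the count rule of the report. No doublet caller based on the transcriptome was run, and doublets within a culture stay in. HTODemux, a hashtag method run as an alternative, called 155 of the 1703 cells at 2 pmol and 123 of the 1589 at 0.2 pmol multiplets. These cells stay in the main comparison.

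UMIs were summed per culture over 1703 cells (2 pmol) and 1589 cells (0.2 pmol) and scaled to CPM. Ratios have exact Clopper-Pearson 95% intervals, levels exact Poisson and shares exact binomial ones, all of which cover counting error only. A gene counted as unequal at 1.5-fold or more with an interval that excluded equality, if it reached 10 CPM in 1 of the cultures or both. No p-value was computed, since each dose was 1 culture. Thinning drew 3000, 1000 or 5000 UMIs per cell without replacement.

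Named are the 20 highest and 20 lowest genes by the interval bound nearest 0 at 20 CPM or more, without genes of mitochondria, ribosomal proteins or antigen receptor segments, unnamed genes or other cell types' markers. Also named are unequal members of the 24 gene lists and, for lists with none, the farthest member, except for an item that is not reported here. Genes given as examples of a list beyond that rule were chosen after their values were seen. The comparison, members and lists were chosen with earlier results of these data known. The calculation was tested on simulated data for this comparison: of 50 genes made 2-fold unequal 100% passed, and of 6725 unchanged genes 0.119%. The unequal genes were drawn at 20 CPM or more. Simulated totals were Poisson draws per culture, without UMIs gathered in few cells or spread between cultures. These shares thus check the calculation under counting error only and give no error rate for the real cultures. Tools were Python 3.11.15, numpy 2.4.6, scipy 1.17.1, pandas 2.3.3, matplotlib 3.10.9, R 4.3.3 and Seurat 5.3.0 (HTODemux, an alternative). Positions are from GENCODE vM21 and promoters from RefSeq on GRCm38.p6.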

Additional observations from a re-analysis of the deposited data

How the results depend on the processing

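Counts of unequal genes kept within 1.5 times of 21 higher and 22 lower with HTODemux hashtag calls (26 and 26), stricter cell filters, other totals, UMIs per cell, without cells holding 3 or more UMIs of other cell types' markers (Eomes, Batf3 and Ighm not counted), and without each gene's 5 leading cells (24 and 24, an alternative chosen after seeing the data). They moved further with 2-fold as the limit (8 and 5), with only genes at 50 CPM or more (3 and 6) and with no filter on low values (158 and 157), where fewer or more genes were tested or could pass. As the mean of the cells' CPM, 34 genes were higher, 19 of them among the 21, and the cause was not tested. That setting gave 26 lower.

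The cytokine and chemokine median was 0.24 at 50 CPM or more, with 8 members left, below the 0.35 of inhibitory receptors, and the heat shock median was -0.03 in UMIs per cell, a scale that shifts every gene by -0.03. Of single genes, Dapl1 (0.57 and 0.58 as given above) and Il7r (-0.38) no longer passed in some settings, and 14 values of genes just short of 1.5-fold, such as Vim, came to pass it. The share of cells with a UMI of Fam71b, lower at 2 pmol at 3000 UMIs per cell, had a log2 ratio of 0.04 at 1000 UMIs, where the cause was not tested. At 1000 or 5000 UMIs, 15 other such ratios left the interval of the value at 3000, among them those of Ccl1, Ccl5, Ctla2a, Ly6c2 and Il7r, with no change of direction, and 76 stayed within it. No paired analysis was possible because each dose was 1 culture. Depth limits calls below about 10 CPM, and the single culture per dose limits all of them.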
